A study of Homo sapiens with 8 samples.

Results

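The keratin genes were taken as every row of the deposited count table whose symbol is KRT, a number and at most a letter from A to C. This gave 55 genes of 26475 in the table, 28 of them on chromosome 17 and 27 on chromosome 12. The samples were 8 libraries of BT474, a long-established human line from a breast ductal carcinoma in which ERBB2 is amplified. The labels call 4 of them NPY1R high and 4 NPY1R low (here the high and the low libraries), after a receptor gene for neuropeptide Y, and list this state as a genotype. They name no drug, time or method of separating the cells, and nothing says that libraries of a group came from separate cultures, so p-values measure the spread between these libraries, which may be technical. The series title speaks of persister cells under lapatinib, a kinase inhibitor of EGFR and ERBB2, and the comparison made was of high against low NPY1R.

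Keratins are the intermediate filament proteins of epithelial cells. A type I (acidic) and a type II (basic) keratin pair to form each filament, and the pair a cell makes marks its kind. In the breast, secretory luminal cells make the simple keratins KRT7, KRT8, KRT18 and KRT19, while the basal layer makes KRT5, KRT14 and KRT17. KRT15, a keratin of basal cells in layered epithelia, was classed with the basal ones here. That class does not fix its place in the breast. Squamous keratins such as KRT4, KRT10 and KRT13 belong to layered epithelia, and a further large set builds hair and its root sheath. By these roles the 55 genes comprised 6 luminal simple, 4 basal, 18 squamous and 26 hair or root sheath keratins, and KRT222, which is keratin-like.

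Keratins resemble one another, so sequences that bear on the counts come first. KRT13, KRT15 and KRT19 are type I keratins that lie side by side on the minus strand of chromosome 17. The stretch of 90 coding bases in which KRT15 is most alike to both KRT13 and KRT19 is shown here. It was picked for its likeness to both genes at once. The 50-base windows that KRT15 shares unchanged with KRT13, given below, do not lie within it. It lies in exon 1, at the start of the helical rod that all keratins share. Capitals mark bases that differ from KRT15. The stretches are at chr17:41518417-41518506 in KRT15, chr17:41505143-41505232 in KRT13 and chr17:41527912-41528001 in KRT19 (GRCh38, GENCODE release 29 transcripts, coding strand).
KRT15: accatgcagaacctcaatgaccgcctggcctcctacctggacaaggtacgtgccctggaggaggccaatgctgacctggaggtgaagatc
KRT13: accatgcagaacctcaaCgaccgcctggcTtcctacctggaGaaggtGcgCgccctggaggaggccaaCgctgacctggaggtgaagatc
KRT19: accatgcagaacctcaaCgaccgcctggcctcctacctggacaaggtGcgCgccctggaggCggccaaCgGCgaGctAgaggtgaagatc

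KRT13 differed from KRT15 at 6 of these 90 bases and KRT19 at 9. Over whole coding sequences, KRT15 was 83.0% identical to KRT13 and 73.5% to KRT19. Of all 50-base windows of the KRT15 coding sequence, 1.29% also occurred in a transcript of another gene, which was KRT13, and of the 100-base windows 0.0% did. Reads of 50 bases or more could therefore tell KRT15 from KRT13 and KRT19 over nearly all of its coding sequence.

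The hair keratins on chromosome 12 are a different case. The stretch of KRT86 most alike to KRT81 and KRT83 is shown because KRT81 carries the same 90 bases without a difference, and KRT83 differs at 1 base, in capitals. The stretches are at chr12:52302139-52302228 on the plus strand in exon 3 of KRT86, chr12:52291154-52291243 on the minus strand in exon 1 of KRT81 and chr12:52321009-52321098 on the minus strand in exon 1 of KRT83 (GRCh38).
KRT86: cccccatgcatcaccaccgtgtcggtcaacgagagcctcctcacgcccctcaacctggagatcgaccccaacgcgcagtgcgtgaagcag
KRT81: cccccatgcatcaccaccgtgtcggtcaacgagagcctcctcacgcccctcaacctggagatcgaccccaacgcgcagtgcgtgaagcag
KRT83: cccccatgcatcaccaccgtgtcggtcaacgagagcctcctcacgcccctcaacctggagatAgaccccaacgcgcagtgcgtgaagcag

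Of the 100-base windows of KRT86, 41.5% also occurred in another gene. Of its 50-base windows 56.8% did, most often in KRT81, so counts of this pair are uncertain. KRT8 and KRT18, which have many processed pseudogenes, shared 8.37% and 0.0% of their 100-base windows and 45.6% and 38.8% of their 50-base windows. KRT8, KRT18, KRT81 and KRT86 were the 4 keratins with values that were not whole numbers (more than 0.005 from one), as estimated counts are where reads fit several genes. In every library the fractions of KRT8 and KRT18 together made a whole number, as with 45686.83 and 28608.17 in NPY1R high replicate 1. Those of KRT81 and KRT86 did so too, at 1.54 and 1.46 in NPY1R high replicate 2. The divided reads thus lay within each pair. KRT7, KRT10, KRT19 and KRT80 shared at most 2.09% of 50-base windows.

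Total counts were 18025648 to 30609791 per library. Levels are given as CPM (counts scaled to library size), and a value after ± is the SD over the libraries of a group (n = 4). NPY1R itself had 699.2 to 1049 CPM in the high libraries and 90.8 to 103.7 CPM in the low ones, as labelled. All 9 luminal epithelial markers passed the count filter, 2 were called higher (ESR1, GATA3) and 2 lower (EPCAM, FOXA1). Of all tested genes 5.78% were called higher and 7.81% lower. The sum of the 9 markers was 4411 to 5048 CPM in the high and 4478 to 5291 CPM in the low libraries. Most of it came from KRT8, KRT18 and KRT19, which are among the keratins studied, so it is no separate measure of them. MUC1 was the lowest marker, with means of 2.30 CPM in the high and 3.41 CPM in the low libraries. Of 6 fibroblast markers COL1A2, DCN and PDGFRB were at 0 in every library, as was the leukocyte marker CD3E. Marker sums were 10.9 to 17.5 CPM in the high and 10.45 to 17.48 CPM in the low libraries for fibroblasts, nearly all from COL1A1, 9.22 to 15.5 and 13.5 to 18.2 CPM for 3 endothelial genes, nearly all from VWF, and 0.936 to 1.23 and 1.10 to 2.07 CPM for 3 leukocyte genes.

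The filter on low counts, which asks for about 10 counts in at least as many libraries as a group holds, left 11 of the 55 keratins. Of the others, 15 had no count in any library, which allows up to 3 counts in each, and 21 had fewer than 10 counts in all. The 15 included 12 hair or root sheath keratins, 2 squamous keratins and KRT14, the main keratin of basal cells. KRT5, the partner of KRT14, had 11 counts over the 8 libraries.

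BT474 cells of both groups carried a luminal set of keratins. Within it 1 keratin classed here as basal, KRT15, was about 2 times as high in NPY1R high. The 4 abundant simple keratins KRT7, KRT8, KRT18 and KRT19 together held 95.8% to 96.4% of all keratin counts in the high libraries and 97.4% to 97.6% in NPY1R low. In edgeR's quasi-likelihood test with Benjamini-Hochberg adjustment over all 14008 tested genes, 1 of the 11 tested keratins passed an adjusted p of 0.05 as higher and 0 as lower, where 13.6% of all tested genes passed (5.78% higher, 7.81% lower). Of the 29 keratins below the filter that had a count, 2 had groups that did not overlap, KRT13 and KRT86, where 3.88% of all such genes did (2.25% with the high libraries above, 1.63% with the low ones above). A count of 2 is too small to set against that share.

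**Figure D1:**
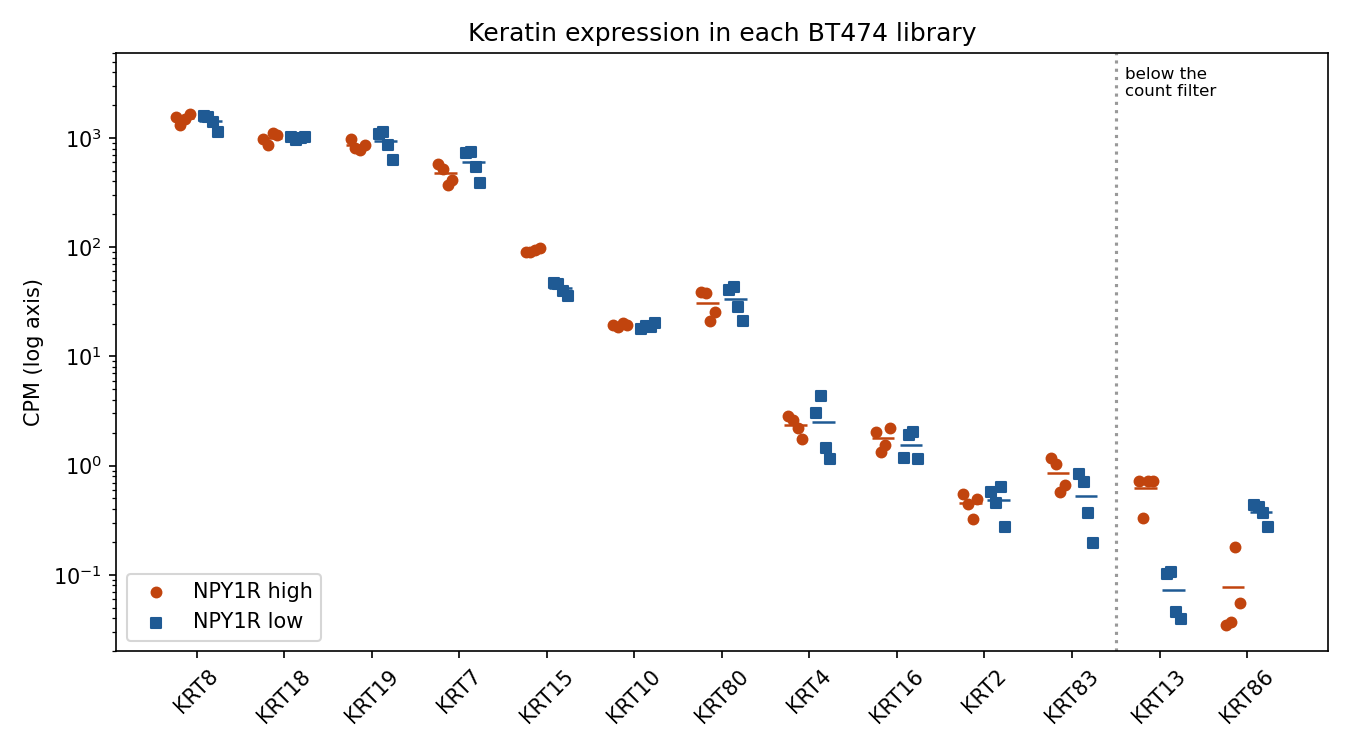
CPM (log axis) of 13 keratins in each of the 4 NPY1R high (circles) and 4 NPY1R low (squares) libraries, with bars at the group means; KRT13 and KRT86, right of the dotted line, did not pass the count filter. The KRT15 libraries stand apart, at 90.1 to 97.4 CPM against 35.6 to 47.2 CPM, while the groups overlap for the other keratins left of the line.

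Among the luminal simple keratins, 0 of the 4 tested members passed in either direction, where 13.6% of all tested genes did. Their median log2 fold change was -0.06, against -0.03 for all tested genes. KRT8, the type II keratin found in every simple epithelium, had 1570, 1320, 1505 and 1647 CPM in high replicates 1 to 4 and 1603, 1557, 1415 and 1138 CPM in the low ones. Its groups overlapped, and the lowest library was NPY1R low replicate 4. The log2 fold change was 0.08, with a 95% interval from -0.17 to 0.33.

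KRT18, the type I partner of KRT8, had 983, 867, 1106 and 1060 CPM in the high libraries and 1030, 949, 994 and 1031 CPM in the low ones. The NPY1R low libraries all lay within the range of NPY1R high. Its log2 fold change was 0.004 (95% interval -0.17 to 0.18), so a difference of more than 0.18 in either direction lay outside the interval. The ratio of KRT8 to KRT18 counts was 1.36 to 1.60 in NPY1R high and 1.10 to 1.64 in NPY1R low. The gene models of KRT8 and KRT18 overlap on opposite strands, and although the kit keeps strand, the strand setting of the counting is not given in the sources used here. Some reads were divided between KRT8 and KRT18, as their fractions show, so this ratio rests in part on that division. The part of the overlap in it was not tested.

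KRT19, the smallest keratin and a type I keratin of luminal and duct cells, had 970, 805, 774 and 870 CPM in the high libraries. It had 1094, 1129, 866 and 628 CPM in the low ones, which spread to both sides of the NPY1R high libraries. The log2 fold change was -0.12 (95% interval -0.49 to 0.25).

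KRT7, the type II keratin of glandular and duct epithelium, had 580, 525, 373 and 414 CPM in the high libraries and 723, 751, 538 and 388 CPM in the low ones. Replicates 1 and 2 were the highest of each group, and the groups overlapped, since low replicates 3 and 4 lay within the range of the high libraries. The log2 fold change was -0.34 (SE 0.21, 95% interval -0.81 to 0.12) and the edgeR quasi-likelihood adjusted p was 0.351. The difference was -0.42 within replicates 1 and 2 and -0.22 within replicates 3 and 4, a division that was known from earlier results of these data and is no batch in the labels. With a term for that division, KRT7 had a log2 fold change of -0.33 and an adjusted p of 0.0338 in the same test, in a fit in which 20.6% of all genes passed (8.60% higher, 12% lower). With the replicate block and GC offset together it was -0.29, and KRT7 was again called lower (adjusted p 0.000819), where 24.1% of genes passed (9.58% higher, 14.5% lower). The other simple keratins, KRT20 of gut epithelium and KRT23, had 3 and 6 counts over the 8 libraries.

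**Figure D2:**
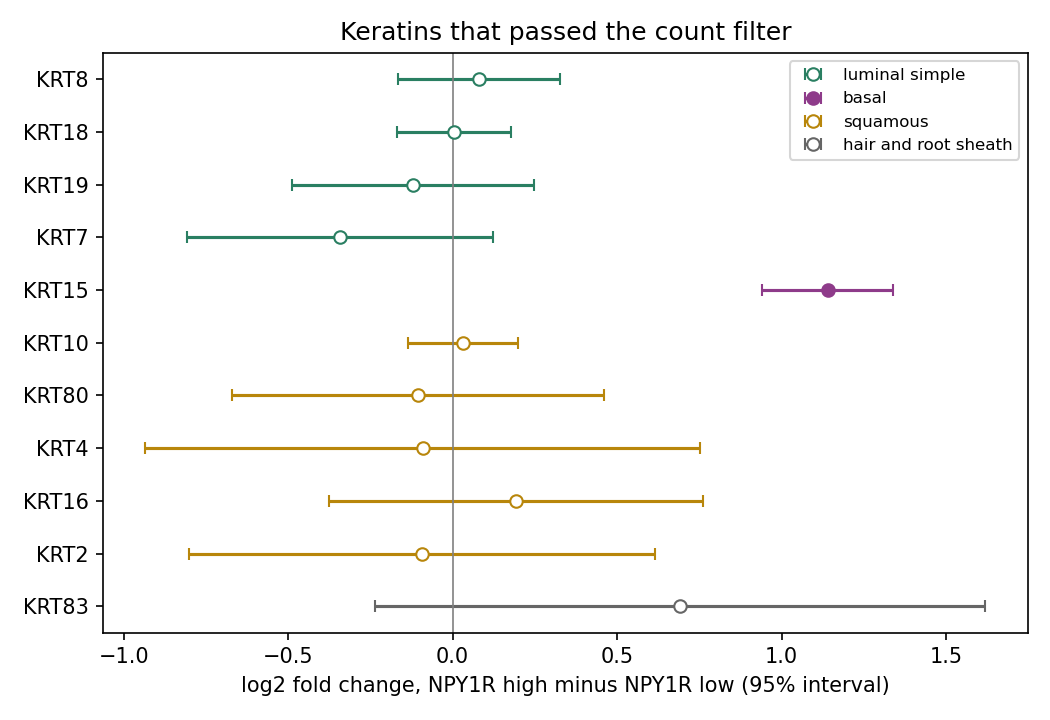
Log2 fold change of NPY1R high against NPY1R low (x axis) for the 11 keratins that passed the count filter, with 95% intervals from edgeR's quasi-likelihood test; colours give the keratin class and filled points an adjusted p under 0.05. KRT15 is the filled point, at 1.14, and the intervals of the other 10 keratins include 0.

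Per length of transcript, the simple keratins stood far above all others. KRT8 averaged 780.7 CPM per kilobase over the 8 libraries, KRT18 and KRT19 641.8 each, KRT7 498.7 and KRT15 18.01. Per kilobase of coding length these were 958.5 for KRT8, 777.2 for KRT18, 743.4 for KRT19, 381.4 for KRT7 and 49.47 for KRT15, so the level of KRT15 depends on which length is used. KRT18 and KRT19 overlapped between libraries (555.2 to 708.3 and 451.9 to 812.3 CPM per kilobase), so their order is not set. KRT10 with 9.04 and KRT80 with 8.27 CPM per kilobase followed, and they changed places when coding length was used in place of transcript length, at 10.96 and 23.64. Summed per kilobase of transcript, type II over type I keratins was 0.886 to 1.03 in NPY1R high and 0.859 to 1.07 in NPY1R low. By this length the 2 types stood near equal level in both groups. The ratio by coding length is not given here, and by that length KRT7, of type II, was lower and KRT18 and KRT19, of type I, were higher.

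Of the 4 basal keratins only KRT15 passed the filter. KRT15 is a type I keratin classed here as basal, known from progenitor cells of the hair follicle and of other layered and glandular epithelia. The gene lies at chr17:41513743-41522529. It had 91.2, 90.1, 93.8 and 97.4 CPM in high replicates 1 to 4 and 47.2, 46.3, 39.8 and 35.6 CPM in the low ones. The groups did not overlap, as was so for 20.2% of tested genes (8.77% with the high libraries above, 11.4% with the low ones above), and the lowest NPY1R high library was nearly 2 times the highest NPY1R low library. The mean rose from 42.2 ± 5.52 to 93.1 ± 3.24 CPM, a log2 fold change of 1.14 (SE 0.09, 95% interval 0.94 to 1.34) or 2.20-fold, with an edgeR quasi-likelihood adjusted p of 3.26e-05. It passed in all 22 alternative fits, with changes of 1.10 to 1.23. Among those, KRT15 was the 1 keratin called with the replicate block (13.1% of all genes passed, 5.75% higher and 7.34% lower) and with the GC offset (21.1%, 8.27% and 12.8%).

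KRT15 made up 2.14% to 2.45% of all keratin counts in the high libraries and 1.02% to 1.09% in NPY1R low. The log2 difference was 0.95 within replicates 1 and 2 and 1.34 within 3 and 4. In bulk RNA, more cells that make KRT15 and more KRT15 RNA per cell cannot be told apart.

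Of the other basal marks measured, 0 passed as higher. KRT14 was at 0 in every library, KRT5 had 0.036 ± 0.030 CPM in the high libraries and 0.065 ± 0.014 CPM in the low ones, and KRT17 had 13 counts in the high libraries and 16 in NPY1R low. Of 9 basal and myoepithelial markers 4 were tested, and CDH3, the gene for P-cadherin, was the 1 that passed, as lower. It had 36.9 ± 4.46 against 50.3 ± 2.81 CPM and an edgeR quasi-likelihood adjusted p of 0.00831. Among all tested genes 5.78% passed as higher and 7.81% as lower. TP63, the transcription factor of basal cells, had 6.36 ± 1.76 and 6.28 ± 1.56 CPM. The summed level of the 9 markers was 44.3 to 55.9 CPM in the high libraries and 59.0 to 64.2 CPM in the low ones, most of it CDH3.

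Of the tested genes around KRT15, 0 others passed. Besides KRT15, 5 genes within 250 kb were tested, and 0 were called in either direction, with log2 fold changes from -0.12 for KRT19 to 0.19 for KRT16. Among all tested genes 13.6% were called, and 5 genes are too few to set against that share. The downstream end of the KRT19 model lies 1.1 kb from the start of KRT15, and the start of KRT13 lies 8.0 kb from the downstream end of KRT15. KRT13 had too few counts to pass the filter, and its level was higher in the high libraries, as for KRT15, at 0.624 against 0.073 CPM. EIF1, a translation initiation factor, had a log2 fold change of 0.05 and JUP, which ties keratin filaments to desmosomes, of -0.01.

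**Figure D3:**
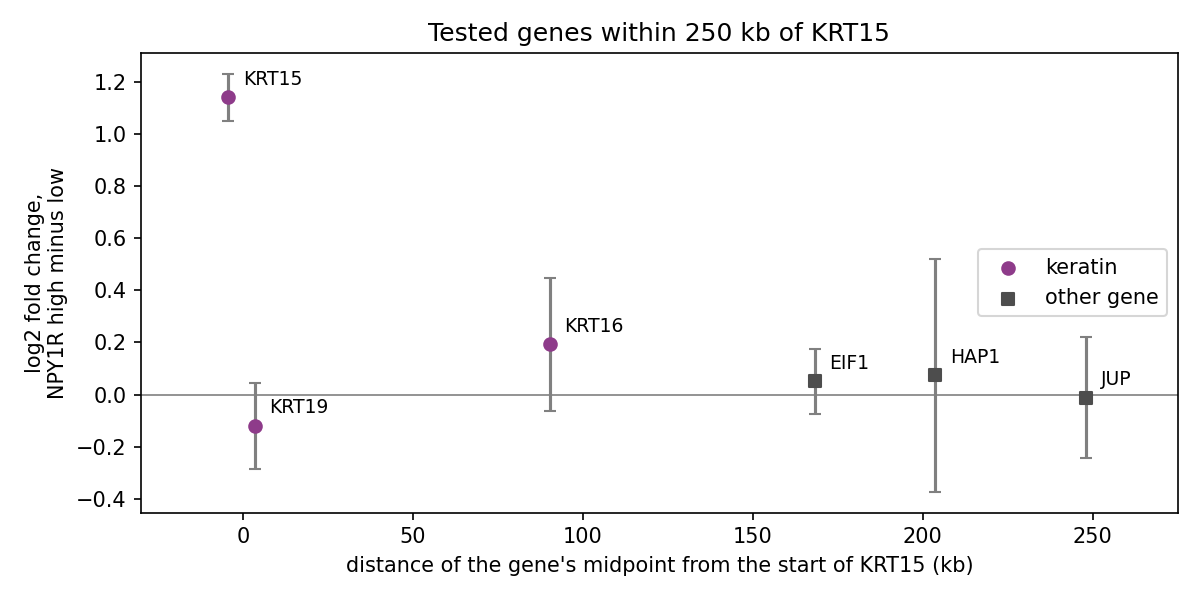
Log2 fold change of NPY1R high against NPY1R low (y axis, with SE) of the 6 tested genes within 250 kb of KRT15, by distance of their midpoint from the start of KRT15 in kilobases (x axis). KRT15 stands at 1.14 and the other 5 genes, 2 keratins and 3 others, lie between -0.12 and 0.19.

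Of the 18 squamous keratins 5 passed the filter, and their median log2 fold change was -0.09. In the test, 0 of them passed in either direction, where 13.6% of all tested genes did. With KRT15, the 6 tested basal and squamous keratins had a median of -0.03, against -0.06 for the luminal simple ones. KRT10, the type I keratin of the upper epidermis, had 19.3, 18.6, 20.4 and 19.4 CPM in the high libraries and 17.95, 19.1, 18.8 and 20.2 CPM in the low ones. The groups overlapped, with a log2 fold change of 0.03 (95% interval -0.14 to 0.20).

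KRT80, a type II keratin found in many epithelia, had 38.8, 38.3, 21.1 and 25.3 CPM in the high libraries and 40.2, 43.1, 28.3 and 21.3 CPM in the low ones. In both groups replicates 1 and 2 were above 3 and 4, by 0.73 and 0.76 on the log2 scale, which was far more than the difference of -0.11 between the groups. KRT4, a type II keratin of moist layered linings, varied in the same way, and its group difference was -0.41 within replicates 1 and 2 and 0.58 within 3 and 4. KRT2, KRT4 and KRT16 had 0.275 to 4.31 CPM and log2 fold changes of -0.09, -0.09 and 0.19, with 95% intervals of -0.80 to 0.61, -0.93 to 0.75 and -0.38 to 0.76.

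In all, 6 of the 11 tested keratins, including KRT7 and KRT80, were higher in replicates 1 and 2 in both groups, where 38.0% of tested genes were. The keratins had a median transcript GC content of 58.5% against 49.4% for tested genes with a value. The part of GC content in this division was not tested.

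**Figure D4:**
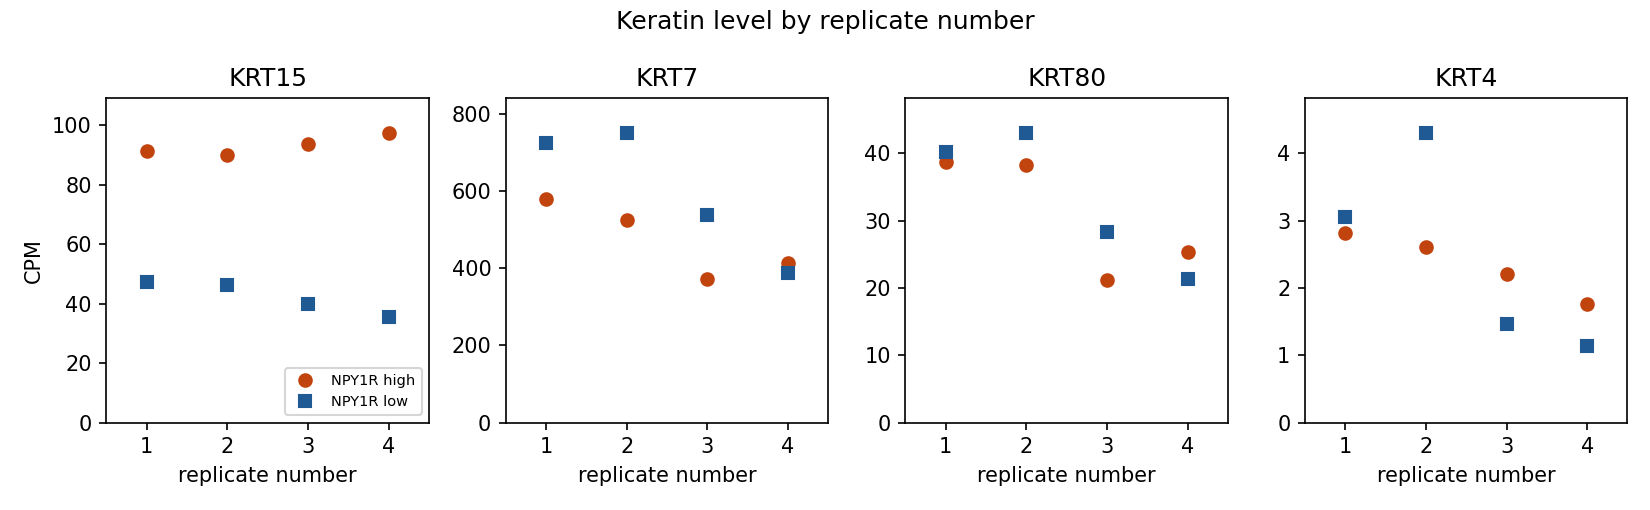
CPM (y axis, from 0) of KRT15, KRT7, KRT80 and KRT4 by replicate number (x axis) in NPY1R high (circles) and NPY1R low (squares). The KRT15 groups are separate at every number, and KRT7, KRT80 and KRT4 are highest in replicates 1 or 2 of each group.

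KRT13, the type I partner of KRT4, lay just under the count filter. It had 21, 9, 20 and 13 counts in the high libraries and 3, 3, 1 and 1 counts in the low ones, and the groups did not overlap. Its level was 0.624 ± 0.193 CPM in the high libraries and 0.073 ± 0.035 CPM in the low ones, and the ratio of the summed counts, 63 against 8 and scaled for depth, was 8.17 (95% interval 3.90 to 19.8, counting error only). When no count filter was used, KRT13 was called higher (edgeR quasi-likelihood adjusted p 0.00155), in a fit in which 8.65% of 19758 genes were called and 4.60% were called higher. KRT4 itself had 2.35 ± 0.465 CPM in the high libraries and 2.49 ± 1.47 CPM in the low ones. KRT13 was singled out after its values were seen. Other squamous keratins below the filter with at least 10 counts in all went both ways. KRT24 had 8 counts in the high and 3 in the low libraries, KRT6B had 0 and 10, and the groups of both overlapped.

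Of the 26 hair and root sheath keratins KRT83, a type II hair keratin, was the 1 that passed the filter. It had 34, 28, 16 and 12 counts in the high libraries and 25, 20, 8 and 5 counts in the low ones. The groups overlapped, and its log2 fold change of 0.69 (SE 0.42) had an edgeR quasi-likelihood adjusted p of 0.345.

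KRT86, a type II hair keratin, lay the other way, with rounded counts of 1, 1, 5 and 1 in NPY1R high and 13, 12, 8 and 7 in NPY1R low. The groups did not overlap, and the ratio of NPY1R low to NPY1R high over summed counts, 40 against 8, was 4.82 (95% interval 2.22 to 11.9, counting error only). Without a count filter it was called lower (edgeR quasi-likelihood adjusted p 0.0303), where 4.05% of genes were called lower. KRT81, which shares the most sequence with KRT86, had 4.54 estimated counts in all. Summed with KRT81, KRT83 and KRT85, of which KRT83 with 148 counts gave most, the total was 35, 31, 23 and 14 estimated counts in the high libraries and 41, 32, 17 and 12 in NPY1R low, with a log2 fold change of 0.08 and an adjusted p of 0.923 in the same test. The KRT86 gene model overlaps that of KRT7, with 113476 counts in all, on the same strand, and that of KRT81 on the opposite strand, and their part in the KRT86 counts was not tested. KRT86 was singled out after its values were seen.

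Outside the keratins, other intermediate filament genes and lamins were mixed, with 1 of 9 tested genes higher and 2 lower. Of all tested genes 5.78% were higher and 7.81% lower. The median log2 fold change of the 9 was -0.24. Vimentin (VIM), the filament of mesenchymal cells that some carcinoma cells make as well, had 119.4, 127.7, 110.0 and 104.5 CPM in the high libraries and 59.6, 59.2, 44.9 and 53.0 CPM in the low ones. The groups did not overlap, and VIM rose by 1.09 on the log2 scale (SE 0.10, edgeR quasi-likelihood adjusted p 8.11e-05), a change close in size to that of KRT15. LMNB1, a lamin of the nuclear envelope, fell by 0.51 and IFFO2, a filament-like gene, fell by 0.59 on the log2 scale.

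Of 14 genes for linkers that bind keratin filaments to junctions and to other filaments, 1 rose and 1 fell. The shares over all tested genes were 5.78% and 7.81%, and the median of the 14 was -0.02. PKP2, a desmosomal plaque protein, rose from 44.7 ± 3.04 to 62.3 ± 1.04 CPM. DSP, the desmosomal protein that anchors keratins directly, was at 754.8 ± 30.5 CPM in the high libraries and 1005 ± 139 CPM in the low ones, with an edgeR quasi-likelihood adjusted p of 0.015. That call was lost without NPY1R high replicate 3 (0.0768), NPY1R high replicate 4 (0.0603) or NPY1R low replicate 3 (0.052). Plectin (PLEC) had a log2 fold change of -0.06.

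The genes of the cornified envelope and squamous differentiation were mostly silent, with 30 of 35 under 1 CPM. Of the 9 tested, 3 rose and 3 fell, where 5.78% and 7.81% of all tested genes did, and the list was not tested. CDSN, the adhesion protein of corneodesmosomes, rose from 0.996 ± 0.225 to 3.61 ± 0.430 CPM, and IVL, for the envelope protein involucrin, from 0.493 ± 0.111 to 1.17 ± 0.271 CPM. TGM3, a transglutaminase of hair and epidermis, fell from 78 counts summed over the low libraries to 3 over the high ones, a ratio of 25 (95% interval 8.26 to 124, counting error only). TGM3 passed the count filter only through the low libraries, so its place among the tested genes that fell follows in part from the filter. CALML5, a calcium-binding protein of the epidermis, fell by 2.48 on the log2 scale, and limma-voom did not call it (adjusted p 0.0679). It had 11.6, 14.85, 8.24 and 2.16 CPM in low replicates 1 to 4 and 2.13, 1.38, 1.56 and 1.54 CPM in the high ones. Low replicate 4 thus lay barely above the highest high library.

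Of 19 tested transcription regulators of epithelial and squamous genes, 3 rose and 4 fell, where 5.78% and 7.81% of all tested genes did. Their median was 0.02, and the list was not tested. DLX3, a regulator of epidermal differentiation, rose by 0.61 (SE 0.12) on the log2 scale. MAF had a log2 fold change of 0.81 and EHF, an ETS factor of glandular epithelium, of -0.35. Both passed on all 8 libraries (edgeR quasi-likelihood adjusted p 0.0221 and 0.0237) and lost the call when single libraries were left out. For MAF these were high replicates 1 and 2 and low replicates 1, 2 and 3 (adjusted p 0.0523 to 0.0753). For EHF these were high replicates 1, 2 and 4 and low replicates 1, 3 and 4 (0.0637 to 0.0969), and upper-quartile factors also lost it (0.0775).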

How the data were processed

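The values, as deposited by the authors, are expected counts: reads estimated per gene from the RNA-seq libraries of the 8 samples, with no scaling across them. Per the submitters' processing notes, STAR 2.5.2, RSEM 1.3.0 and the build hg38 were used; their settings, the annotation and the read length are not given in the sources used here. Of a library's values 7.97% to 8.76% were not whole. Expected counts were rounded, filtered with edgeR's filterByExpr (minimum count 10), scaled by TMM and tested with edgeR's quasi-likelihood test (R 4.3.3, edgeR 4.0.16, limma 3.58.1, DESeq2 1.42.0). An SE is the log2 fold change over the root of the test's F. The design had been written for counts. CPM values use the TMM-scaled library sizes.

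The fit was tested on simulated data. Intervals of count ratios are exact binomial ones and cover counting error only, since reads were counted with no molecular identifiers.

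Transcript length and GC are medians of GENCODE release 29 basic transcripts (94.1% of tested genes had a value); its gene models give the coordinates. Sequence windows were sought in its transcript sequences. Members and gene lists were chosen with earlier results of these data known, so no list was tested. Named are keratins past the threshold or with a mean of at least 10 CPM, and in each related list at most 4 genes past the threshold with the largest change; others named were chosen after their values were seen. The values of 1 gene that this rule picks are not reported here. Alternatives were other scalings, filters and tools, unrounded counts, a replicate block and a term for replicates 1 and 2 against 3 and 4. Further ones were a GC offset, summing near-identical copies and leaving out each library. The copies summed were KRT81, KRT83, KRT85 and KRT86, and apart from these KRT6A, KRT6B and KRT6C. Keratin pseudogenes were added to the keratin they are named after, where the count table holds it.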

Additional observations from a re-analysis of the deposited data

Results flagged for a closer look

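In 32 sets of 4 libraries (13 keratins and 3 class shares in each group), a single library stood apart from the other 3 in 3 sets by Dixon's test at the 95% level, where chance gives about 1.6. KRT13 was at 0.335 CPM in NPY1R high replicate 2, below the 0.716 to 0.724 CPM of the other NPY1R high libraries and still above every NPY1R low library. KRT86 was at 0.181 CPM in NPY1R high replicate 3, above the 0.034 to 0.055 CPM of the others and below every NPY1R low library. The luminal simple share of keratin counts was 95.82% in NPY1R high replicate 2, below 96.3% to 96.4% in the others.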

How the results depend on the processing

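The rise of KRT15 kept its direction and its call under all 22 alternatives, and 9 of the 13 related genes picked by the list rule kept theirs wherever they were tested. Without a count filter 2 keratins were called higher and 1 lower, since KRT13 and KRT86 entered the test. With the term for replicates 1 and 2 against 3 and 4, and with block and GC offset together, 1 keratin was called lower, KRT7 (log2 fold changes of -0.33 and -0.29, edgeR quasi-likelihood adjusted p 0.0338 and 0.000819). Leaving out each library gave 1 to 2 keratins higher and 0 lower; the second was KRT13, which passed the filter there only through the high libraries. Over all genes, the replicate block with GC offset called 1342 higher and 2031 lower, the term 1681 lower and the GC offset 1795 lower. Leaving out each library gave 624 to 1068 genes higher and 625 (without NPY1R high replicate 4) to 1064 lower; without NPY1R high replicate 3 there were 710 and without NPY1R low replicate 1 there were 678. Upper-quartile factors gave 1009 higher and 783 lower, where TMM gave 810 and 1094.

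Whether replicates pair by number was not settled. Deviations of same-numbered libraries correlated at 0.339, 0.157, 0.0907 and 0.0178 across genes, and differently numbered libraries were not compared. In the column names, sample numbers alternate between the low and the high library of each replicate number. The replicate block gave 805 genes higher and 1028 lower and the same keratin counts, 1 higher and 0 lower. MAF was not called with it (edgeR quasi-likelihood adjusted p 0.0564).

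Signs that turned belonged to keratins that were not called. KRT18 was at -0.0012 with limma-voom, -0.0011 with the replicate block and -0.0002 with the term, and -0.0208 to 0.0686 over libraries left out. KRT4 was at 0.0721 with limma-voom, 0.0164 with the replicate block, 0.0032 with the term and 0.0376 with block plus GC offset, and from -0.2921 to 0.3074 over libraries left out. KRT2 ranged from -0.2478 to 0.0714 and KRT80 from -0.2348 to 0.0721. Per kilobase, the luminal simple share averaged 98.22% in NPY1R high and 98.8% in NPY1R low, and the basal share 0.9802% and 0.4288%. The causes were not tested. The 95% intervals of KRT2, KRT4, KRT16, KRT80 and KRT83 span more than 1 on the log2 scale, that of KRT80 with 6791 counts in all, and the part of depth in this was not tested.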
